A study of Homo sapiens with 2 samples.

Results

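Catecholamine neurons and chromaffin cells make dopamine and noradrenaline from tyrosine, load them into vesicles together with the chromogranin proteins, and take the released amine back up through transporters in the cell membrane. The 9 genes described here cover these steps. TH encodes tyrosine hydroxylase, the rate-limiting enzyme, DDC the decarboxylase that makes dopamine, and DBH the vesicular enzyme that makes noradrenaline from dopamine. SLC18A1 and SLC18A2 encode the vesicular monoamine transporters VMAT1 and VMAT2. SLC6A2 and SLC6A3 encode the noradrenaline and dopamine transporters of the plasma membrane, and CHGA and CHGB encode chromogranins, acidic proteins of the secretory granule. Methylation of CpG sites in promoters and islands is commonly low where a gene can be transcribed, while gene bodies outside islands are commonly methylated.

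The 9 genes were chosen by symbol from 31235 autosomal gene symbols with a measured CpG. A CpG belonged to a gene when the authors' annotation placed it in that gene's promoter, or within the gene or just upstream of it. DNA methylation had been measured by bisulfite sequencing after methyl capture in SH-SY5Y, an established human neuroblastoma cell line of noradrenergic character, in 1 library from cells exposed to Mdivi-1, a small molecule used as an inhibitor of mitochondrial fission, and 1 library from cells given the solvent DMSO. Dose and duration are not given in the sources used here. There are no replicates in either group, and a test on reads therefore compares these 2 libraries and not the conditions. All errors and intervals are for read counting alone, and without molecular identifiers several reads can stem from 1 molecule.

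At least 10 reads in both libraries were present at 1037 of the 1159 positions of the 9 genes, 245 of them in promoters and 792 elsewhere. SLC6A3 held 404 of these CpGs, DDC 151, TH 144, SLC6A2 129, DBH 70, SLC18A2 49, SLC18A1 and CHGB 31 each, and CHGA 28. Mean coverage over them was 54.2 reads in the Mdivi-1 library and 44.8 reads in the DMSO library, against 49.2 and 39.8 reads over all 2458234 autosomal CpGs. Promoters of some regulators that mark noradrenergic neuroblastoma cells were read from the same DNA, since expression was not measured here. HAND2 averaged 1.61% in the Mdivi-1 library and 1.15% in the DMSO library, GATA3 averaged 0.914% and 0.802%, and PHOX2A 29.98% and 30.24%.

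Promoter sequences are shown for DBH, DDC and CHGA, the genes for which an available sequence could be placed on the measured CpGs. They are RefSeq sequences of build GRCh38.p14, running from 250 bases before to 50 bases after the start site, written 5′ to 3′ on the gene's strand with every CpG in capitals. Each was placed on the deposited hg19 positions by the spacing of its CpGs, and no coordinate was converted. The DBH promoter lies at chr9:133636113-133636412 on the plus strand. DDC has 2 start sites, and its promoters lie on the minus strand at chr7:50561022-50561321 (promoter 1, downstream) and at chr7:50565356-50565655 (promoter 2, upstream). The CHGA promoter lies at chr14:92922900-92923199 on the plus strand.
DBH: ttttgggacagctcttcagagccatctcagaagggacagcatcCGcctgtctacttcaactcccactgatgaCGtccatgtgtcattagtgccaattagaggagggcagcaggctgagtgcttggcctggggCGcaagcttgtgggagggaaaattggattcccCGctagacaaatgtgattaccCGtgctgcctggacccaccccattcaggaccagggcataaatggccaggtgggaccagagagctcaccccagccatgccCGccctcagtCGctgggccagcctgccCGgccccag
DDC promoter 1: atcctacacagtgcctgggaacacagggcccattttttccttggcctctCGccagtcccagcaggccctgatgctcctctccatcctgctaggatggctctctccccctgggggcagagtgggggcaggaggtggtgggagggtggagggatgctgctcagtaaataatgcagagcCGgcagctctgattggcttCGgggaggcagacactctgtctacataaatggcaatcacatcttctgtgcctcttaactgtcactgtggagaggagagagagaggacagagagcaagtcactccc
DDC promoter 2: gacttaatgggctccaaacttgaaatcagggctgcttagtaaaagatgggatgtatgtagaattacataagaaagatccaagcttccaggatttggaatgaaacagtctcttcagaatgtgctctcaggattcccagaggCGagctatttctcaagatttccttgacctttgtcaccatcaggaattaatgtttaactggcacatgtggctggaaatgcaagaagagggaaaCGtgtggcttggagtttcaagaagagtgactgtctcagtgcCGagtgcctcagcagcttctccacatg
CHGA: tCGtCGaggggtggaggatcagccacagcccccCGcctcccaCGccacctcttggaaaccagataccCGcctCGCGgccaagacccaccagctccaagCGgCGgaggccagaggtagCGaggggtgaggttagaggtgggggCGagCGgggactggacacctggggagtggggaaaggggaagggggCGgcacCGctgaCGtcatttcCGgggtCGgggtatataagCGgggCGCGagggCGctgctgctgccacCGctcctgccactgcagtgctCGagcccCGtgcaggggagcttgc
All 8 CpGs of the DBH sequence were measured, as were the 3 of each DDC sequence, while 9 of the 24 CpGs in the CHGA sequence were. In the DBH sequence 3 of 330 reads over CpGs were methylated in the Mdivi-1 library and 0 of 205 in the DMSO library, which allows a share of up to 1.46% (3 counts of the total), or 11.7% if the 8 CpGs share the same reads. DDC promoter 1 had 1 of 120 such reads methylated in the Mdivi-1 library and 0 of 114 in the DMSO library, which allows up to 2.63%, or 7.89% with shared reads. DDC promoter 2 had 300 of 361 methylated in the Mdivi-1 library and 243 of 295 in the DMSO library. CHGA had 10 of 281 and 9 of 184. The measured CpGs of DBH and DDC promoter 1 thus had little methylation in both libraries, as had the 9 of CHGA, all in the part of its sequence farthest upstream, and those of DDC promoter 2 were mostly methylated in both.

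Across all 9 genes the 2 libraries gave nearly the same picture. Mean methylation over the 1037 CpGs was 41.9% in the Mdivi-1 library and 40.6% in the DMSO library, a difference of 1.29 percentage points. The counting error of that difference was 0.256 points if CpGs are taken as independent, and 9.94 points if all CpGs are taken to share the same reads. The same difference over all autosomal CpGs was 0.456 points, from 43.2% in the Mdivi-1 library and 42.8% in the DMSO library. Pooled over all reads the 9 genes differed by -0.29 points, so the sign of their mean difference depended on how CpGs were weighted. Levels of single CpGs ranged from 0% to 100% and followed each other closely between libraries, with Pearson's r of 0.973 over the 1037 CpGs, which come from the same 2 libraries and include neighbours on the same reads. The root mean square difference of single CpGs was 8.75 points, beside 8.24 points given by counting alone, and over all autosomal CpGs these values were 7.32 and 7.08 points. In the 9 genes 524 CpGs were higher in the Mdivi-1 library, 403 were lower and 110 were equal; over all autosomal CpGs 44.3% were higher and 38.6% lower.

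No CpG of the 9 genes passed the two-sided Fisher's exact test with Benjamini-Hochberg adjustment over all autosomal CpGs, for which an adjusted p under 0.05 and a difference of at least 20 points were required. The background of that call was 0.00061% of CpGs, 15 in all, or 0.000773% with no minimum difference, so a count of 0 among 1037 is near it, and every adjusted p in the 9 genes was 1. At an unadjusted p under 0.05 there were 28 CpGs, or 2.70%, beside a background of 2%. Of these, 19 were higher in the Mdivi-1 library (background 1.27%) and 9 were lower (background 0.725%). SLC6A3 held 14 of the 28, TH 4, DDC 3, SLC18A1 and SLC18A2 2 each, DBH, SLC6A2 and CHGA 1 each, and CHGB 0.

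**Figure D1:**
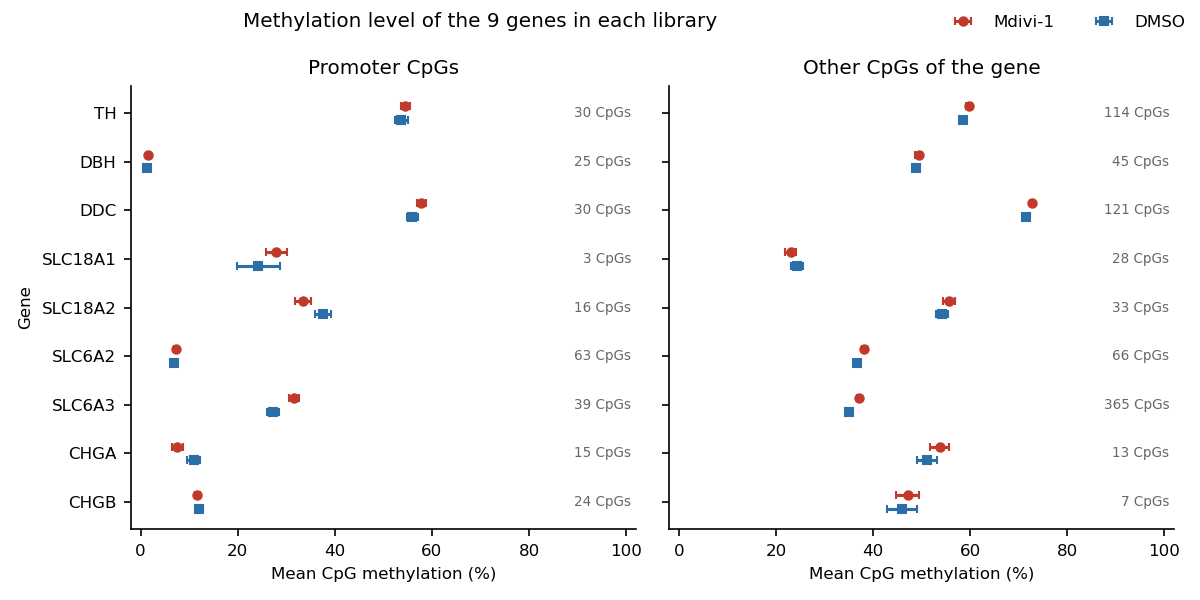
Mean CpG methylation in percent (horizontal axis) of each gene in the Mdivi-1 library (red circles) and the DMSO library (blue squares), over promoter CpGs on the left and the other CpGs of the gene on the right, with the number of CpGs at the edge. Bars are counting errors of 1 standard error with CpGs taken as independent; the DBH and SLC6A2 promoters lie lowest and the TH and DDC promoters highest in both libraries.

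Among the synthesis enzymes the promoters of TH and DDC were about as methylated as unmethylated on average, and that of DBH was almost free of methylation. The TH promoter, 30 CpGs at 2193204 to 2194066 on chromosome 11 (hg19, as are all positions from here on), averaged 54.5 ± 0.961% in the Mdivi-1 library and 53.7 ± 1.31% in the DMSO library (± is the counting error of a level, CpGs independent). The difference of 0.80 points is smaller than its counting error of 1.61 points. This average hides a slope. The 5 CpGs farthest upstream, at 2194011 to 2194066, averaged 95.3% in the Mdivi-1 library and 96.0% in the DMSO library. The 25 CpGs nearer the gene averaged 46.3% and 45.2%. Of these 25, the ones closest to the gene, at 2193204 to 2193414, were low in both libraries. They ranged from 0% to 24.1% in the Mdivi-1 library and from 4% to 22.2% in the DMSO library.

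Within TH the levels climbed again along the gene. A stretch of 24 intronic CpGs at 2191148 to 2191715, in the shelf of a CpG island, averaged 25.9% in the Mdivi-1 library and 26.2% in the DMSO library. The 34 CpGs at 2189063 to 2189894, in the island's shore, averaged 82.3% and 78.6%, 3.74 ± 1.81 points higher in the Mdivi-1 library. They are a part of that shore. All 53 shore CpGs of TH, at 2188267 to 2190200, differed by 1.55 points. The counting errors of that difference were 1.48 points (CpGs independent) and 11.9 points (reads shared). The island itself, 17 exonic CpGs at 2187863 to 2188245, was methylated at 83.7% in the Mdivi-1 library and 81.3% in the DMSO library. It is an island within the body of TH and not at its promoter, and over all autosomes exonic island CpGs averaged 50.03% and 49.6%. Among TH windows of 1 kb with at least 5 CpGs, the one of largest difference lay in the island, 7 CpGs at 2187863 to 2187924. It averaged 90.7 ± 2.73% in the Mdivi-1 library and 86.5 ± 3.38% in the DMSO library. That difference of 4.25 points is smaller than its counting error of 4.46 points. The TH CpG of smallest p was an intronic one at 2190292, with 10 of 20 reads methylated in the Mdivi-1 library and 1 of 14 in the DMSO library (exact p = 0.0110, adjusted p = 1).

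All 25 promoter CpGs of DBH, at 136500161 to 136501421 on chromosome 9, were under 10% in both libraries. They averaged 1.57 ± 0.349% in the Mdivi-1 library and 1.23 ± 0.353% in the DMSO library, a difference of 0.34 ± 0.513 points. None of them lies in an annotated island, shore or shelf. Of 5961 promoters without such CpGs and with at least 5 CpGs measured, 7.31% were lower than DBH in the Mdivi-1 library and 5.47% in the DMSO library, and their median was 33.6% and 33.3%. The unmethylated stretch of DBH ran on into the gene, where 16 exonic CpGs at 136501500 to 136501809 averaged 0.890% in the Mdivi-1 library and 1.13% in the DMSO library.

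Further into DBH the next 7 measured CpGs, in an intron at 136503080 to 136503290, averaged 34.0% and 28.3%, a difference of 5.71 ± 4.26 points. The rest of the gene was highly methylated. Its last 6 CpGs, in the 3′ UTR at 136523621 to 136523713, averaged 85.7 ± 1.956% in the Mdivi-1 library and 92.6 ± 1.60% in the DMSO library, and 5 of the 6 were lower in the Mdivi-1 library. Among windows of 1 kb with at least 5 CpGs that was the one of DBH with the largest difference, -6.83 points, which is larger than both its counting errors, 2.63 points with independent CpGs and 6.32 points with shared reads. The 1 kb window before it ran the other way: its 8 intronic CpGs of DBH averaged 90.5% in the Mdivi-1 library and 84.6% in the DMSO library, a difference of 5.92 points. It held the DBH CpG of smallest p, at 136522748, with 35 of 36 reads methylated in the Mdivi-1 library and 21 of 27 in the DMSO library (exact p = 0.0360, adjusted p = 1).

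DDC is transcribed from start sites 4334 bases apart, and the 2 promoters were in opposite states in both libraries. Around the upstream site, at 50633102 on chromosome 7, the 8 CpGs at 50633079 to 50633897 averaged 76.4% in the Mdivi-1 library and 71.8% in the DMSO library, and the 8 CpGs beyond them averaged 91.0% and 85.0%. At the downstream site, at 50628768, the 3 nearest CpGs averaged 1.23% in the Mdivi-1 library and 0% in the DMSO library. Between the sites, the 8 CpGs at 50629068 to 50629988 averaged 22.8% and 27.1%, a mean of unlike CpGs. Those at 50629068 to 50629246 were at 0% to 5% in both libraries, and those at 50629868 and 50629915 at 77.3% to 87.5%. The CpG at 50629988 had 5 of 44 reads methylated in the Mdivi-1 library and 21 of 55 in the DMSO library (exact p = 0.00283). It did not pass the adjusted test and was named after its values were seen. The next 4 CpGs upstream averaged 74.3% and 73.2%. Taken over all 30 promoter CpGs, DDC had 57.8 ± 0.898% in the Mdivi-1 library and 56.0 ± 1.05% in the DMSO library, a mean of 2 unlike promoters and a difference of 1.85 ± 1.40 points.

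The body of DDC was mostly methylated, and 76 of its 151 CpGs were above 90% in the Mdivi-1 library and 71 in the DMSO library. An island in an intron stood apart, with 18 CpGs at 50535755 to 50535953 that averaged 2.18% and 2.32%, a difference of -0.14 ± 0.869 points. The 9 CpGs in the shelves of that island averaged 94.2% in the Mdivi-1 library and 96.1% in the DMSO library. The smallest p of any CpG in the 9 genes was that of an intronic DDC CpG at 50548605, where 157 of 163 reads were methylated in the Mdivi-1 library and 110 of 133 in the DMSO library (96.3% against 82.7%, exact p = 0.000115, adjusted p = 1). The other 5 CpGs of its window, at 50548044 to 50548652, were also higher in the Mdivi-1 library, and the window averaged 86.7% and 81.3%.

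**Figure D2:**
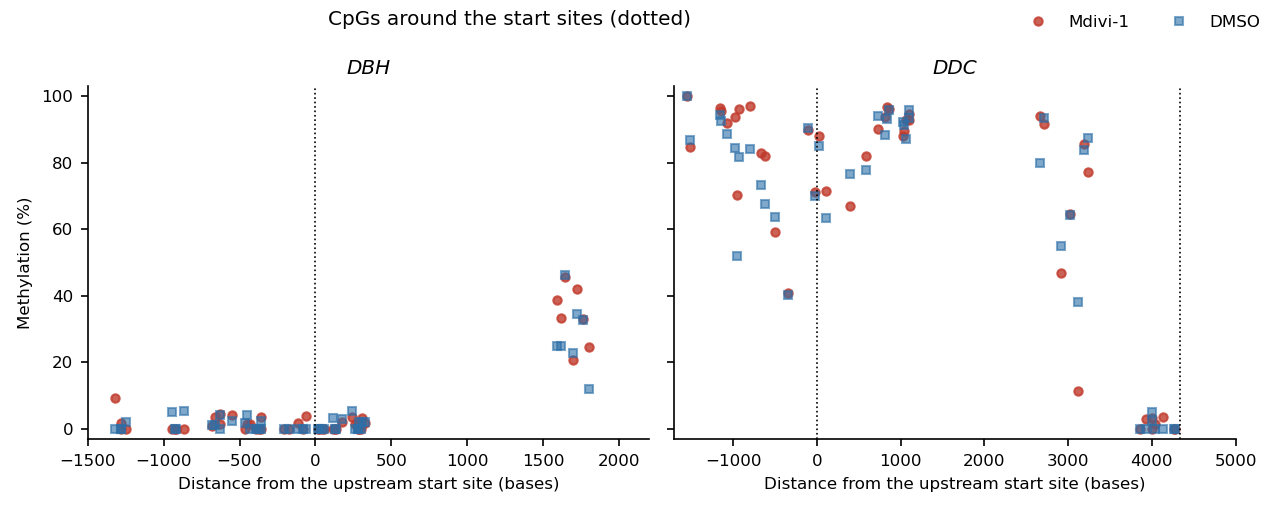
Methylation in percent of single CpGs in the Mdivi-1 library (red circles) and the DMSO library (blue squares) against distance in bases from the upstream start site, positive in the direction of transcription, for DBH and DDC. Dotted lines mark start sites; every DBH promoter CpG is under 10%, and of the DDC CpGs shown those near 0% lie just before the downstream site.

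Of the vesicular transporters, SLC18A1 (VMAT1) was low over much of its length, and the measured promoter CpGs of SLC18A2 (VMAT2) were graded in level. Only 3 promoter CpGs of SLC18A1 were measured, on chromosome 8 at 20040893 to 20041382, and 2 of them were at 0% in both libraries. The third, at 20041382, had 26 of 31 reads methylated in the Mdivi-1 library and 8 of 11 in the DMSO library (83.9% and 72.7%). The gene as a whole, 31 CpGs outside any island class, averaged 23.5 ± 1.08% in the Mdivi-1 library and 24.4 ± 1.18% in the DMSO library. Intronic CpGs outside island classes averaged 64.1% and 63.3% over all autosomes, and the 17 of SLC18A1 averaged 22.8% and 22.9%. A more methylated stretch of SLC18A1 was its only window of 1 kb with at least 5 CpGs. Its 7 CpGs, at 20038469 to 20038864, averaged 56.6 ± 3.23% in the Mdivi-1 library and 56.7 ± 3.29% in the DMSO library, a difference of -0.09 points. The SLC18A1 CpG of smallest p was in its 3′ UTR at 20002813, with 0 of 33 reads methylated in the Mdivi-1 library and 3 of 18 in the DMSO library (exact p = 0.0392, adjusted p = 1).

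The SLC18A2 promoter, 16 CpGs at 118999615 to 119000397 on chromosome 10, averaged 33.4 ± 1.63% in the Mdivi-1 library and 37.5 ± 1.70% in the DMSO library. Its difference of -4.08 points is larger than its counting error with independent CpGs, 2.37 points, and smaller than that with shared reads, 12.4 points. All 16 CpGs lie in a shore and before the annotated start of the gene, at 119000625. The next measured CpG is at 119001446, so CpGs around the start were not read. The SLC18A2 promoter sequence could not be placed on the measured CpGs. Among the 16, the 5 CpGs farthest upstream averaged 2.997% and 4.08%, and the 11 nearer the gene averaged 47.3% and 52.7%. One CpG among those 11, at 119000229, had 4 of 32 reads methylated in the Mdivi-1 library and 15 of 34 in the DMSO library (12.5% against 44.1%, exact p = 0.00630, adjusted p = 1); it was named after its values were seen.

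Inside SLC18A2 the direction was mixed. An island of 8 intronic CpGs averaged 26.2% in the Mdivi-1 library and 28.1% in the DMSO library, and 10 exonic CpGs in its shelf averaged 70.6% and 67.9%. Among windows with at least 5 CpGs the one of largest difference was intronic, 6 CpGs at 119002090 to 119002191, with 74.7 ± 4.77% in the Mdivi-1 library and 67.7 ± 3.78% in the DMSO library at mean coverages of 13.3 and 20.8 reads. That difference of 6.94 points is about the size of its counting error of 6.18 points. An exonic CpG at 119003771 had the smallest p of the gene, with 59 of 63 reads methylated in the Mdivi-1 library and 43 of 59 in the DMSO library (93.7% against 72.9%, exact p = 0.00273, adjusted p = 1).

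The noradrenaline transporter gene SLC6A2 had an almost unmethylated island at its start and a highly methylated body. Over the island, 83 CpGs at 55689600 to 55690841 on chromosome 16, the mean was 1.40% in the Mdivi-1 library and 1.29% in the DMSO library, a difference of 0.12 ± 0.323 points. The 24 CpGs outside island classes averaged 91.3% and 88.6%, 2.76 ± 1.46 points higher in the Mdivi-1 library. In between, 7 intronic CpGs of the shore averaged 32.4% and 26.8%, and 7 of the shelf 59.8% and 60.1%. The promoter as annotated averaged 7.24 ± 0.317% in the Mdivi-1 library and 6.82 ± 0.347% in the DMSO library over 63 CpGs, of which 59 and 57 were under 10%. This mean joins unlike stretches, since the annotation also counts intronic CpGs at 55704760 to 55705230 as promoter. Those were at 83.3% to 100% in the Mdivi-1 library and 77.8% to 97.3% in the DMSO library. They are also among the 24 CpGs outside island classes. Among windows of 1 kb with at least 5 CpGs, the one of largest difference, 8 CpGs at 55719005 to 55719149, averaged 94.96% and 96.92%. A window of 3 CpGs at 55735795 to 55735888, all higher in the Mdivi-1 library, averaged 70.4% and 55.3%, a difference of 15.04 ± 5.98 points; it was named after its values were seen. It held the CpG of smallest p, at 55735795, with 24 of 31 reads methylated in the Mdivi-1 library and 18 of 35 in the DMSO library (exact p = 0.0405, adjusted p = 1).

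The dopamine transporter gene SLC6A3 was intermediate on average along most of its length, its measured promoter CpGs included. The annotated start of SLC6A3 is at 1445555 on chromosome 5, and no CpG of the gene was measured between 1445290 and 1446166. CpGs around the start were thus not read. Its promoter, 39 CpGs at 1446166 to 1446994, averaged 31.6 ± 1.03% in the Mdivi-1 library and 27.2 ± 1.22% in the DMSO library. The difference of 4.36 points had counting errors of 1.63 points (CpGs independent) and 12.0 points (reads shared), and 23 CpGs were higher in the Mdivi-1 library and 13 lower. Over all 404 CpGs of the gene the means were 36.5 ± 0.298% and 34.3 ± 0.325%, a difference of 2.14 ± 0.448 points, which came to 0.997 points with pooled reads. Few of these CpGs were close to fully methylated: 30 were above 90% in the Mdivi-1 library and 26 in the DMSO library, while 134 and 137 were under 10%.

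The 3′ UTR of SLC6A3 was low for its kind, with 37 CpGs at 1393833 to 1394678 averaging 19.6% in the Mdivi-1 library and 19.3% in the DMSO library. Over all autosomes 3′ UTR CpGs averaged 67.3% and 66.6%. Within the 3′ UTR the 10 CpGs nearest the end of the gene averaged 2.84% in the Mdivi-1 library and 1.19% in the DMSO library, and the 27 others 25.8% and 26.1%. The SLC6A3 CpG of smallest p lay in an intronic island at 1416879, where 378 of 445 reads were methylated in the Mdivi-1 library and 286 of 368 in the DMSO library (84.9% against 77.7%, exact p = 0.00838, adjusted p = 1). That island is the deepest stretch of the 9 genes, and its window of 19 CpGs averaged 51.6% and 51.7%, a difference of -0.04 ± 0.759 points at mean coverage of 406 reads in the Mdivi-1 library.

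Both chromogranin genes had nearly unmethylated promoter islands and more methylated bodies. In CHGA, 9 upstream island CpGs at 93389247 to 93389347 on chromosome 14 averaged 3.52% in the Mdivi-1 library and 4.61% in the DMSO library, and 6 shore CpGs before them averaged 13.7% and 20.4%. The whole promoter of 15 CpGs averaged 7.58 ± 1.06% in the Mdivi-1 library and 10.9 ± 1.37% in the DMSO library, a difference of -3.35 points with counting errors of 1.73 points (CpGs independent) and 7.82 points (reads shared), and of -5.06 points with pooled reads. Of these CpGs 3 were higher in the Mdivi-1 library, 9 lower and 3 equal. The printed CHGA sequence holds a cAMP response element, TGACGTCA, a palindrome that reads alike on both strands, which starts 54 bases before the start site and is present in 649 of 35116 RefSeq promoters of the same length (1.85%). The CpG inside it was not among those measured, so its state was not read.

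Among CHGA windows with at least 5 CpGs the one of largest difference was intronic, with 8 CpGs at 93391101 to 93391966 averaging 44.6 ± 2.44% in the Mdivi-1 library and 41.9 ± 2.60% in the DMSO library. It held the CpG of smallest p, at 93391932, where 22 of 40 reads were methylated in the Mdivi-1 library and 10 of 36 in the DMSO library (exact p = 0.0209, adjusted p = 1). In CHGB, 15 upstream island CpGs at 5891880 to 5892053 on chromosome 20 averaged 0.595% and 1.85%, and 3 intronic shelf CpGs averaged 75.0% and 71.5%. The CHGB promoter over 24 CpGs averaged 11.7 ± 0.507% in the Mdivi-1 library and 12.1 ± 0.766% in the DMSO library, a difference of -0.41 ± 0.896 points. Among CHGB windows with at least 5 CpGs the one of largest difference, at 5892004 to 5892417, had 0% in all 9 CpGs of the Mdivi-1 library. Its mean in the DMSO library was 1.81%. The CHGB CpG of smallest p lay outside that window, at 5891053. There 40 of 45 reads were methylated in the Mdivi-1 library and 19 of 26 in the DMSO library (exact p = 0.108).

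**Figure D3:**
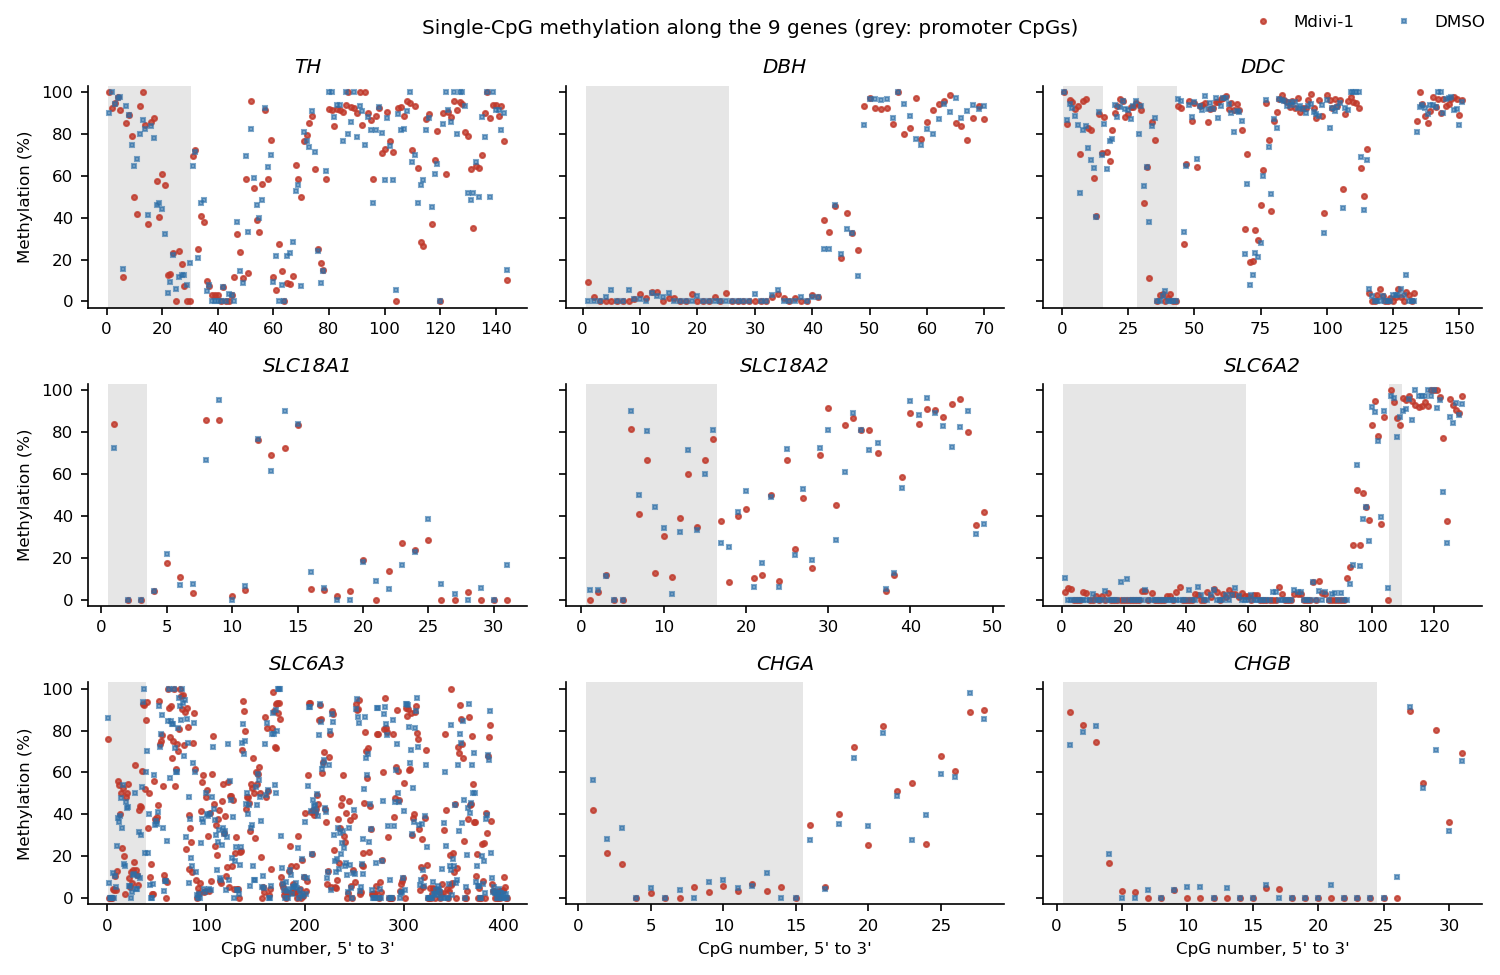
Methylation in percent of every measured CpG of the 9 genes, numbered 5′ to 3′ along each gene, in the Mdivi-1 library (red circles) and the DMSO library (blue squares), with promoter CpGs on grey. DBH, SLC6A2, CHGA and CHGB have a run of promoter CpGs near 0% followed by more methylated bodies in both libraries, and SLC6A3 varies between 0% and 100% along its length.

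In some position classes the 9 genes departed from the autosomal mean. Their 36 upstream island CpGs, from CHGA, CHGB and SLC6A2 alone, averaged 1.31% in the Mdivi-1 library and 2.34% in the DMSO library. All autosomal CpGs of that class averaged 12.6% and 12.5%. As whole promoters these 3 were nearer the middle of the 13155 promoters with an island CpG. In the Mdivi-1 library 40.2% of those were lower than CHGA, 50.1% than CHGB and 39.2% than SLC6A2. In the DMSO library the shares were 48.8%, 51.2% and 38.3%. The 295 intronic CpGs of the 9 genes outside island classes averaged 49.9% and 48.1%, against 64.1% and 63.3%. SLC6A3 held 169 of them. The difference between libraries was 1.76 points in that class and 0.770 points over all autosomal CpGs of it. In exonic shores, 46 CpGs of TH and SLC6A3, it was 4.74 ± 1.61 points, from 57.2% in the Mdivi-1 library and 52.5% in the DMSO library, against 0.566 points. With shared reads the counting error of the 4.74 points was 12.6 points. The 24 CpGs of SLC6A3 in this class differed by 7.54 ± 2.20 points. The 22 of TH differed by 1.69 ± 2.35 points, less than their counting error.

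Promoters and genes were compared by a rule of size, which asks for 5 CpGs or more, a difference of the means of 10 points or more, and 80% or more of the CpGs on the same side. Of the 8 promoters with at least 5 CpGs, 0 met the rule (background 0.243% of 22658 promoters), and of the 9 genes 0 did (background 0.112%). Of the 8 promoters, 5 were higher in the Mdivi-1 library and 3 lower, where 58.3% and 41.7% of all promoters were, and their median difference was 0.38 points, beside 0.20 points over all promoters. Over all CpGs of a gene 5 of the 9 were higher and 4 lower, where 65.5% and 34.5% of all genes were, with medians of 0.46 and 0.33 points. The signs of the genes near 0 were not stable: a minimum of 5 reads turned CHGB, DBH, SLC18A1 and SLC18A2, a minimum of 20 reads turned CHGB, the deposited fractions turned CHGA and CHGB, and pooled reads turned TH and CHGB. Pooling reads, which weights deep CpGs more, turned the difference of the TH promoter to -2.96 points, DDC to -1.88, SLC6A2 to -0.33 and CHGB to 1.61, so no direction is drawn for these.

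In windows of 1 kb the 9 genes had 62 windows with at least 5 of their CpGs, of which 39 were higher in the Mdivi-1 library and 23 lower (background 58.7% and 41.2%). The same rule of size was met by 2 windows, or 3.23%, beside a background of 0.877% for either direction and 0.538% for higher in the Mdivi-1 library. Both windows were higher in the Mdivi-1 library, and neither is in a promoter of the 9 genes. Both had intermediate levels. Of the 41334 autosomal windows that averaged 20% to 80% over both libraries, 1.18% met the rule as higher in the Mdivi-1 library.

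The first lies in an intron of SLC6A3, 13 CpGs at 1439128 to 1439316 outside island classes. It averaged 56.3 ± 2.75% in the Mdivi-1 library and 39.4 ± 2.78% in the DMSO library, a difference of 16.9 points with counting errors of 4.13 points (CpGs independent) and 16.0 points (reads shared). Of the 13 CpGs 11 were higher in the Mdivi-1 library. A pair near its lower end differed most. At 1439132, 7 of 14 reads were methylated in the Mdivi-1 library and 1 of 12 in the DMSO library, and at 1439137 the counts were 10 of 15 and 2 of 13. Exact 95% binomial intervals were wide, at 1439137 38.4% to 88.2% in the Mdivi-1 library and 1.92% to 45.4% in the DMSO library, and no CpG of the window passed the adjusted test. Mean coverage was 22.2 and 17.2 reads, and at a minimum of 20 reads 5 CpGs were left, with a difference of 8.53 points, under the rule of size.

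The second lies at 50599137 to 50599481 on chromosome 7, within an intron of DDC where the antisense gene DDC-AS1 is also annotated. Its 8 CpGs, 6 of DDC and 2 in an exon of DDC-AS1, averaged 31.5 ± 1.962% in the Mdivi-1 library and 21.1 ± 1.82% in the DMSO library. The difference of 10.4 points had counting errors of 2.77 points (CpGs independent) and 8.12 points (reads shared), and all 8 CpGs were higher in the Mdivi-1 library. The CpG of smallest p, at 50599154, had 35 of 76 reads methylated in the Mdivi-1 library and 18 of 64 in the DMSO library (exact p = 0.0362, adjusted p = 1). Over the 6 CpGs of DDC alone the difference was 9.59 points, under the size the rule asks for.

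**Figure D4:**
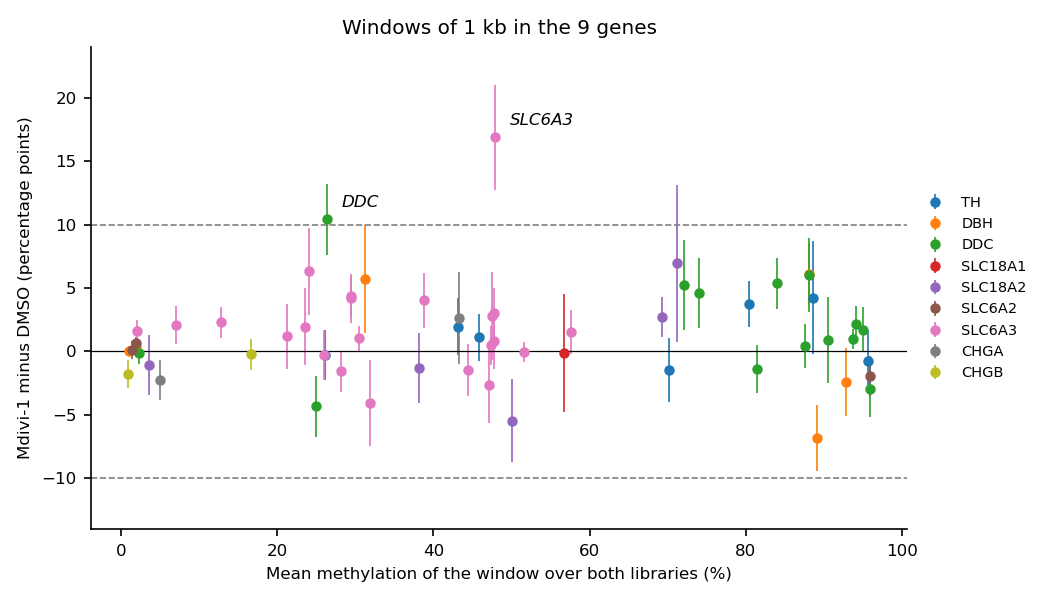
Difference between the libraries in percentage points, Mdivi-1 minus DMSO (vertical axis), against mean methylation over both libraries in percent (horizontal axis), for 62 windows of 1 kb, coloured by gene. Bars are counting errors of 1 standard error with CpGs taken as independent and dashed lines mark 10 points; the SLC6A3 window at 16.9 points and the DDC window at 10.4 points lie above the upper line.

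**Figure D5:**
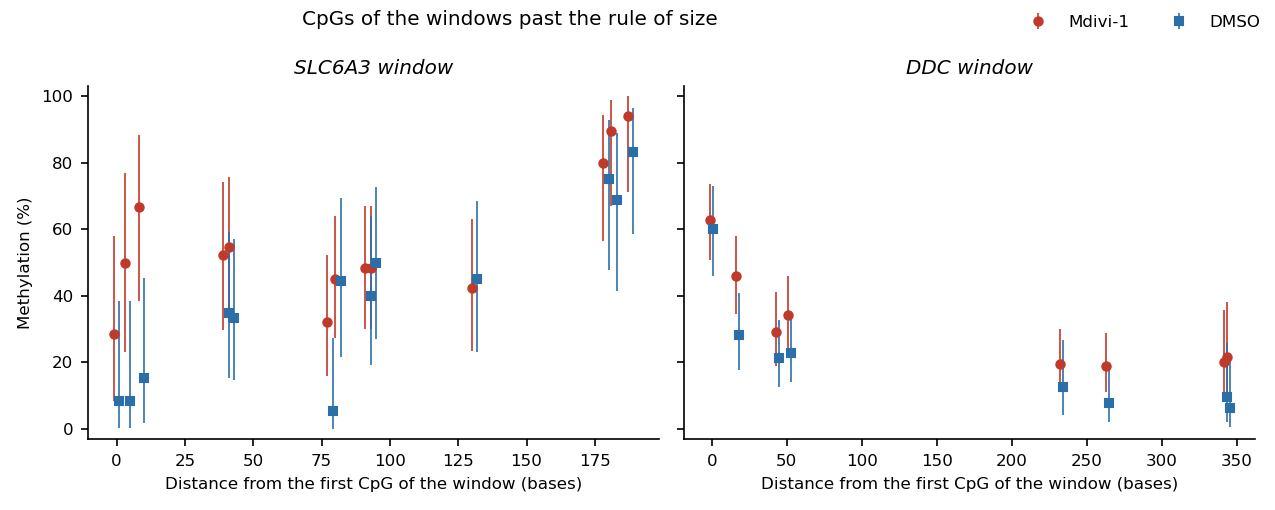
Methylation in percent of each CpG in the 2 windows that met the rule of size, in the Mdivi-1 library (red circles) and the DMSO library (blue squares), against distance in bases from the window's first CpG, with exact 95% binomial intervals. The libraries are drawn slightly apart for legibility; in the DDC window all 8 CpGs are higher in the Mdivi-1 library and in the SLC6A3 window 11 of 13 are, and most intervals overlap.

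A further 21 autosomal genes of the same pathway were read at their promoters, covering cofactor and neighbouring synthesis enzymes, other granins with the enzymes that process them, and the noradrenergic regulators. Of these 16 were higher in the Mdivi-1 library and 5 lower, with a median of 0.45 points, beside 58.3% higher, 41.7% lower and 0.20 points over all promoters. None met the rule of size, and 0 of their 2864 CpGs were called, with 43 (1.501%) at an unadjusted p under 0.05. Among the lowest differences were those in SCG3, a granin, at 6.95 ± 0.799% in the Mdivi-1 library and 10.02 ± 1.08% in the DMSO library, and in SCG5, a chaperone of the prohormone convertase PCSK2, at 91.7% and 93.3%. The highest were in QDPR, which regenerates the cofactor of tyrosine hydroxylase, at 26.9 ± 0.847% and 24.8 ± 0.553%, in PCSK1, a prohormone convertase, at 34.5% and 33.0%, and in CYB561, which supplies electrons for DBH in the granule, at 48.0% and 47.0%. The differences of SCG5 and CYB561, -1.66 and 1.01 points, were smaller than their counting errors of 2.42 and 1.73 points for independent CpGs. From pooled reads the median of the 21 promoters was -0.22 points, so no direction is drawn for the list.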

How the data were processed

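Genomic DNA of SH-SY5Y cells, 1 library per treatment, was enriched with the SureSelectXT Methyl-Seq kit and sequenced on a NovaSeq instrument, per the labels' protocols. The submitters' processing notes name BSMAP, with no version, and hg19. The authors deposited a methylated fraction and a coverage for each library at 2773807 positions, with annotation. Coverage is taken as estimated counts, since some deposited values are not whole. The deposited difference of fractions, read as a score, was not used for results.

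The DMSO fractions as deposited were whole reads at the deposited coverage for 33.3% of positions within a tolerance of 1e-06, and fitted whole reads once coverage was scaled by 1.23, which is median coverage in the Mdivi-1 library (37 reads) over that in the DMSO library (30 reads). No source used here states this step, which was read from the values. Methylated reads were recovered as whole numbers by search, and 10795 positions (0.389%) without them were left out, none in the 9 genes.

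Only autosomal CpGs covered by 10 or more reads in each library were kept. Levels are means over CpGs. Each CpG had a Fisher exact test, two-sided, and p-values were adjusted by Benjamini-Hochberg over 2458234 CpGs. Counting errors are binomial, for independent CpGs or for reads shared by all CpGs of a region. Named in each gene are the CpG of smallest p (ties by coverage, then position) and the 1 kb window of at least 5 CpGs with the largest absolute difference, and of the pathway list the 3 promoters of largest difference in each direction, of which 1 is not reported here. MAOA, MAOB and PCSK1N lie on the X chromosome and were left out. The genes, lists and tests were chosen with earlier results of these data known. The test and the recovery of reads were checked on simulated data. Alternatives were other coverage minimums, pooled reads, deposited fractions, removal of CpGs above the 99.9th percentile of coverage, other window sizes and CpG numbers, other sizes of difference, all chromosomes and Benjamini-Yekutieli adjustment. The RNA-seq of the study was not analysed here. Tests ran in SciPy 1.17.1 and Numba 0.67.0 and figures in Matplotlib 3.10.9, on Python 3.11.15 with pandas 2.3.3 and NumPy 2.4.6.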

Additional observations from a re-analysis of the deposited data

How the results depend on the processing

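No CpG of the 9 genes and none of the 21 further genes was called under any of the 7 alternatives to the call, which gave 10 to 19 calls over the genome. Windows of the 9 genes that met the rule of size numbered 2 in the report, 1 at 20 reads, 0 in windows of 2 kb, 1 with at least 10 CpGs and 3 with at least 3 CpGs, and 2 under each other alternative. At 20 reads the SLC6A3 window lost CpGs and came to 8.53 points, and in 2 kb it came to 8.35 points over 34 CpGs and the DDC window to 9.07 points. Pooled reads gave -0.29 points for the 9 genes together, against 1.29 as a mean over CpGs, and -0.22 points for the median of the 21 promoters, against 0.45; the cause was not tested. Over all CpGs of a gene pooling also turned the sign of TH (-1.95 points) and CHGB (2.03 points), lowered SLC6A3 to 0.997 and DDC to 0.22 points, and gave -4.92 points for CHGA, -3.11 for SLC18A2 and 2.09 for DBH. The median difference of the 9 promoters, SLC18A1 with its 3 CpGs included, was 0.42 points and came to -0.33 points with pooled reads and 0.33 to 0.64 points under the other alternatives; that of the 9 genes ranged from 0.22 to 0.69 points. No paired analysis was possible because each group has 1 library. Depth limits single CpGs, as in the SLC6A3 window with mean coverages of 22.2 reads in the Mdivi-1 library and 17.2 reads in the DMSO library, and no difference has a replicate behind it.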
